A study of Homo sapiens with 8 samples.

Results

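A group of 5044 genomic regions was examined that carried a ChIP-seq peak in cells given only solvent (DMSO) and in cells given pomalidomide (POM) alone, and no peak in the 2 libraries whose labels name all-trans retinoic acid (ATRA). Peaks on chromosomes 1 to 22 and X from all 4 lists were merged where they shared at least 1 bp. Of the 67328 merged regions, 5044 (7.49%) had this pattern. They make up 15.4% of the 32828 regions called with both POM and DMSO. The members were chosen by the peak calls themselves, so the pattern of calls and the strength of the POM and DMSO peaks are given as descriptions with no test.

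The study set OPM-2, an established human multiple myeloma cell line with the t(4;14) translocation named in the title of the series, under 4 treatments of 72 h: 1 µM ATRA with 1 µM POM, 1 µM POM alone, 1 µM ATRA alone, and DMSO. One immunoprecipitated library and 1 input library were made per treatment, and the labels do not name the antibody. Without replicates the treatments were not tested against each other, and intervals cover counting error only. All 10 plasma cell marker genes checked, among them SDC1, CD38, IRF4 and PRDM1, had a peak at the locus in each list, whereas peaks were called at the loci of 3 of 6 T cell markers and 2 of 6 myeloid markers with POM, and at 2 of 6 and 1 of 6 with DMSO. Markers of earlier B cells had peaks at 2 of 6 loci with POM and 3 of 6 with DMSO, erythroid markers at 2 of 4 with either, and epithelial markers at 2 of 4 with POM and 1 of 4 with DMSO.

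Pomalidomide binds cereblon, the substrate receptor of a ubiquitin ligase, and directs that ligase to the zinc finger proteins IKZF1 and IKZF3, on which myeloma cells depend. ATRA is the ligand of the retinoic acid receptors, which sit on DNA together with retinoid X receptors and exchange corepressors for coactivators when ligand binds. A chromatin immunoprecipitation peak marks a stretch of DNA recovered more often than its local background. Its summit is the point of highest recovery, and its fold enrichment compares the summit with that background within 1 library.

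Sequences are shown for promoters in which both the POM and the DMSO summit of a member lay, and such promoters may hold or adjoin other regions too. Both summits fell in the window from 250 bp before to 50 bp after a RefSeq start site at 201 of 22132 promoters of protein-coding genes. The 6 with the strongest member, by the lower of its POM and DMSO summit reads, are printed from RefSeq (GRCh38.p14) as the 250 bases before the start site, 5′ to 3′ on the strand of the gene. Capitals mark every match, on either strand, to 11 short motifs and 1 double motif listed further on. FDXR encodes ferredoxin reductase, which passes electrons to mitochondrial P450 enzymes, SNRNP70 the U1 small nuclear ribonucleoprotein 70K of the spliceosome, and TAF5 a subunit of the general transcription factor TFIID. PPFIA2 encodes liprin-alpha-2 of the synapse, B9D1 a protein of the ciliary transition zone, and BRK1 a subunit of the WAVE complex that drives actin branching.
FDXR (chr17:74872995-74873244, minus strand): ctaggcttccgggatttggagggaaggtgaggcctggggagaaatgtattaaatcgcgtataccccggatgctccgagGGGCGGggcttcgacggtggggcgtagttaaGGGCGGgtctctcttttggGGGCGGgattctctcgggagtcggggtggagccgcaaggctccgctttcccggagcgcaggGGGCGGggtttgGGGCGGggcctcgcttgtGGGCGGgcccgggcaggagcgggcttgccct
SNRNP70 (chr19:49085201-49085450, plus strand): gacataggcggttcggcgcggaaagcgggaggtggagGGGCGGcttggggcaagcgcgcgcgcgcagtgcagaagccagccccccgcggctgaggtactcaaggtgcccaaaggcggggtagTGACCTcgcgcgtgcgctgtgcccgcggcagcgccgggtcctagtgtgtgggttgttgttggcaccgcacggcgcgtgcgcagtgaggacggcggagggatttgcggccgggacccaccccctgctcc
TAF5 (chr10:103367726-103367975, plus strand): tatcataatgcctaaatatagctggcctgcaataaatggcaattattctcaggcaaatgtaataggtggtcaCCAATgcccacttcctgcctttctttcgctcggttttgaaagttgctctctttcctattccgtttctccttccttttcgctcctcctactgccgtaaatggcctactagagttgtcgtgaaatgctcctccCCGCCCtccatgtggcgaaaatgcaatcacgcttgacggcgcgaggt
PPFIA2 (chr12:81598372-81598621, minus strand): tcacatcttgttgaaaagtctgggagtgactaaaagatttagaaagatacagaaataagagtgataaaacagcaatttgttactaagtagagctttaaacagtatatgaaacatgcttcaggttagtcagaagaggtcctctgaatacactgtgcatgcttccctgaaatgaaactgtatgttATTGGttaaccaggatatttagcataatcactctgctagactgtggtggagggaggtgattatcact
B9D1 (chr17:19362724-19362973, minus strand): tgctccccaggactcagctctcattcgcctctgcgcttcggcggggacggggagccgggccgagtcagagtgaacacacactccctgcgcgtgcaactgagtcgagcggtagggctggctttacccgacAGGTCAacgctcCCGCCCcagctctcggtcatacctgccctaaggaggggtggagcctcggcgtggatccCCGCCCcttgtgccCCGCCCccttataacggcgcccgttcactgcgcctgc
BRK1 (chr3:10115425-10115674, plus strand): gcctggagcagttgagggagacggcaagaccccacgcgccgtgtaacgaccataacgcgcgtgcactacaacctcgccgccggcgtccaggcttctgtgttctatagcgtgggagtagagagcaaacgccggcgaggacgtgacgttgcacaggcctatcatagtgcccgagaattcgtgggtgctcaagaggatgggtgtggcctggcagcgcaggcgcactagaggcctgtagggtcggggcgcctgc

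In these 6 promoters the summits lay between 138 and 240 bp upstream of the start site. A region called in all 4 lists stood 60 bp from the member at FDXR, 78 bp at SNRNP70, 117 bp at PPFIA2 and 134 bp at BRK1. The nearest such region stood 27716 bp away at TAF5 and 13945 bp away at B9D1. At FDXR the summit held 105 reads with POM and 109 with DMSO, and 6 copies of GGGCGG, the core of the GC box bound by SP and KLF factors, stand in the printed stretch. At SNRNP70 the summit held 108 reads with POM and 101 with DMSO, and at TAF5 it held 99 with POM and 89 with DMSO. PPFIA2 had 88 reads with POM and 167 with DMSO, B9D1 had 87 with POM and 142 with DMSO, and BRK1 had 82 with POM and 93 with DMSO. Fold enrichment with POM and with DMSO was 7.08 and 3.35 at FDXR and 8.86 and 3.10 at SNRNP70. The local background at these 2 was 14.0 and 11.3 reads with POM, and 31.9 with DMSO at both. At the others, fold enrichment with POM and with DMSO was 15.8 and 16.8 (TAF5), 4.39 and 6.63 (PPFIA2), 15.6 and 15.4 (B9D1), and 13.1 and 10.0 (BRK1). The printed sequences differ widely in composition, from 36.8% G and C at PPFIA2 to 72.0% at SNRNP70. That of BRK1 holds none of the motifs.

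The members were narrow and weak by comparison with regions called everywhere. Their median width was 384 bp, against 1400 bp for the 19384 regions called in all 4 lists. Median summit reads were 39 with POM and 45 with DMSO at the members, and 197 with POM and 221 with DMSO at regions called in all 4 lists. Median fold enrichment was 6.28 with POM and 6.16 with DMSO at the members, and 22.8 with POM and 21.7 with DMSO at regions called in all 4 lists. Reads at a summit were recovered from the deposited fold enrichment and p. The weakest member peaks had a −log10 p of 5.07 with POM and 5.06 with DMSO, just inside the limit of 5 that every deposited peak passes.

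The share of members among regions called with POM and DMSO depended steeply on strength, taken as the lower of the POM and DMSO summit reads. It was 68.3% (95% Wilson interval 64.8 to 71.6) of regions with up to 20 reads, 51.3% at 21 to 30, 37.7% at 31 to 40 and 23.4% at 41 to 60. Above that it was 11.3% at 61 to 80, 3.79% at 81 to 120 and 0.506% at 121 to 200, and above 200 reads 2 of 7983 regions were members. As the members thinned out, regions called in all 4 lists made up 1.52% of the weakest group and 99.5% of the strongest.

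**Figure D1:**
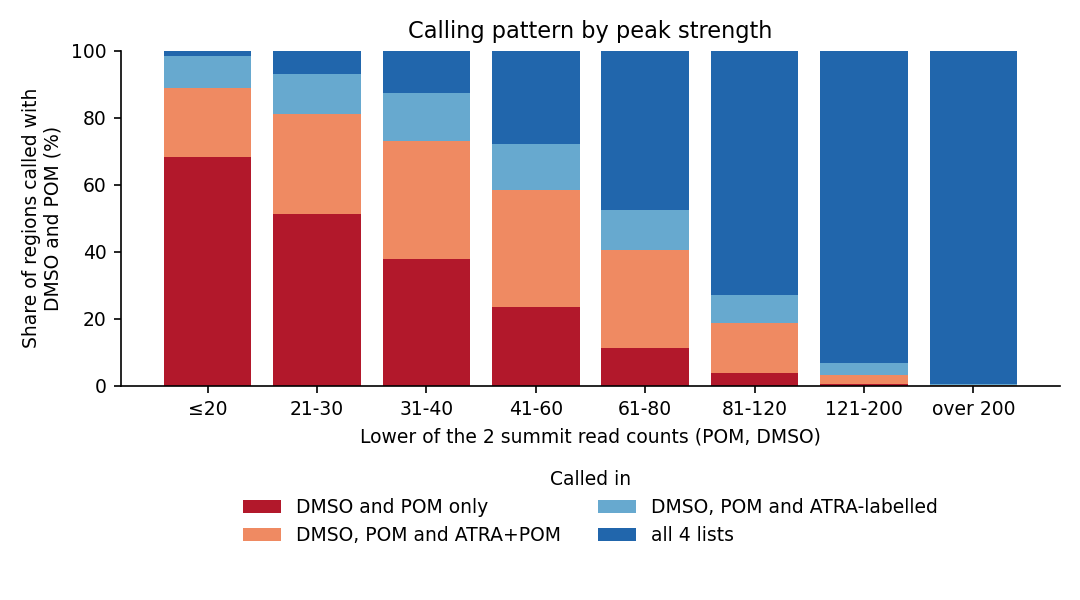
Stacked bars give the share (%) of regions called with POM and DMSO that fell in each calling pattern, in groups by the lower of the POM and DMSO summit reads. Members, in dark red, make up 68.3% of the weakest group and 0.506% of regions with 121 to 200 reads.

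Depth and enrichment of the libraries labelled ATRA and ATRA+POM are set beside these calls as a description, and their part in the calls was not tested. Relative to DMSO the inferred depth was 0.902 for ATRA+POM, 0.133 for ATRA and 0.927 for POM, and the lists held 47193 peaks for ATRA+POM, 36742 for ATRA, 54279 for POM and 50946 for DMSO. At the depth behind the ATRA-labelled list the member summits would hold a median of 5.58 reads from their POM value and 5.97 from their DMSO value. The peaks of that list had 4 reads at the lowest, 11 at the 10th percentile and 23 at the median, and 212 members (4.20%) would reach 11 in both, while 3333 (66.1%) would reach the lowest of 4. These values scale by depth alone. Scaled for depth, ATRA-labelled summits in regions called in all 4 lists held a median of 1.20 times the POM reads. Against DMSO the median was 1.14 times, and applying these ratios to the members would give higher values. In regions called in all 4 lists the ATRA+POM summits held a median of 0.549 times the POM reads and 0.477 times the DMSO reads. At those ratios the members would have a median of 21.4 ATRA+POM reads from their POM value and 21.5 from their DMSO value. The 10th percentile of the ATRA+POM list was 25 reads, which 1920 members (38.1%) would reach from POM and 1879 (37.3%) from DMSO. Its lowest was 11 reads, which 4654 members (92.3%) would reach from POM and 4687 (92.9%) from DMSO. A peak that was lost and a peak that fell under the calling limit cannot be told apart.

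Many members lay beside a peak of the lists they lack. A peak of the ATRA-labelled or the ATRA+POM list lay within 1000 bp of 2300 members (45.6%) and within 500 bp of 1829 (36.3%). The smallest gaps of members were 12, 17 and 21 bp. Just outside the rule, the smallest overlaps that kept a region from being a member were 41, 50 and 56 bp. With the 1 bp rule, 2744 members stood farther than 1000 bp from any peak of those lists, a count added after the data were seen. Merging peaks up to 500 bp apart left 2623 regions of this pattern, lists trimmed to the same number of peaks by strength 1878, and leaving the ATRA-labelled list out of the rule gave 7656.

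POM and DMSO were set side by side at the members as a description, since the rule required a call in both. The median log2 ratio of summit fold enrichment, POM over DMSO, was 0.01, with quartiles of -0.41 and 0.48, and 2552 of 5044 members had the higher fold enrichment with POM. At regions called in all 4 lists the median was 0.06. A ratio of at least 2 was found at 431 members with the higher value in POM (8.54%, where 15.0% of all regions called with POM and DMSO had such a ratio). It was found at 258 with the lower value in POM (5.11%, where the figure over all these regions was 10.1%). The remaining 86.3% lay within 2 times, and nothing is read from these shares because the rule used the POM and DMSO calls. In lists trimmed to the same number of peaks, 173 were at least 2 times higher and 22 at least 2 times lower with POM. The shares over all 24570 regions called with POM and DMSO in the trimmed lists were not computed. Nothing is read from these 2 counts.

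The neighbouring patterns had ratios away from 0. Regions called with POM and DMSO and also with ATRA+POM had a median log2 ratio of POM over DMSO of 0.62, and those also called in the ATRA-labelled list had -0.63. The patterns were themselves set by calls, so these medians are given without a test. Dividing summit reads by relative depth, in place of fold enrichment, gave the members a median log2 ratio of -0.12.

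**Figure D2:**
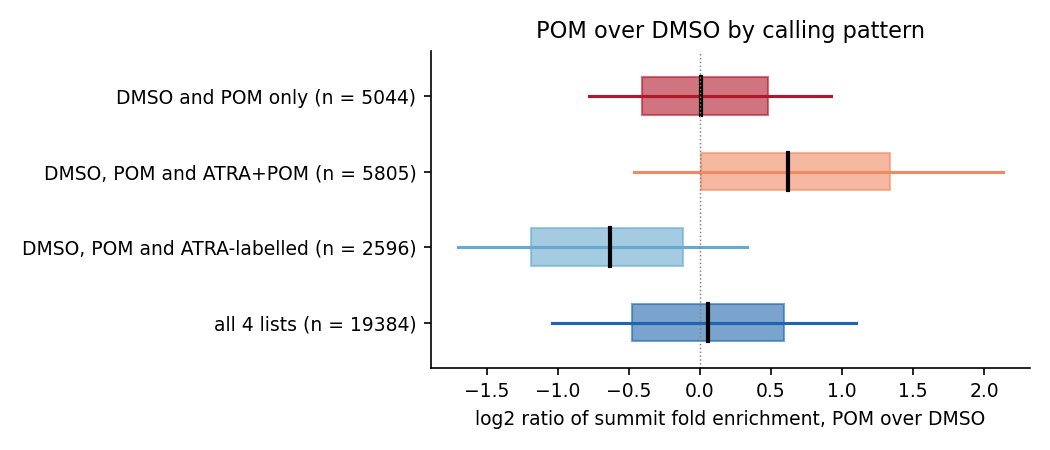
The log2 ratio of summit fold enrichment, POM over DMSO, is drawn for 4 calling patterns (black line, median; box, quartiles; thin line, 10th to 90th percentile of the regions). Members centre on 0.01, between 0.62 for regions also called with ATRA+POM and -0.63 for regions also called in the ATRA-labelled list.

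The 12 strongest members were a mixed group of intergenic, intronic and promoter regions. The strongest, chr1:162835464-162836166, lay 15.2 kb from CCDC190 and held 374 summit reads with POM and 250 with DMSO. The next, chr17:35341091-35341747, lay 8.89 kb from SLFN11, a helicase-like protein that sensitises cells to replication-damaging drugs, and held 238 reads with POM and 265 with DMSO. Its fold enrichment was 18.0 with POM and 19.0 with DMSO, and an ATRA-labelled peak stood 148 bp away.

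DUSP10, a phosphatase of the stress kinases p38 and JNK, had a member at its start site (chr1:221741564-221742098) with 174 reads with POM and 202 with DMSO. A member inside FIRRM had 152 reads with POM and 156 with DMSO. One 9.96 kb from ERCC4, an endonuclease subunit of nucleotide excision repair, had 160 reads with POM and 143 with DMSO, with no region called in all 4 lists nearer than 8820 bp. At each of these the POM and DMSO reads lay close together.

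PCSK4, a proprotein convertase, carried at its start site (chr19:1490476-1490703) a member with 142 reads with POM and 257 with DMSO. Its fold enrichment ran the other way, 16.9 with POM and 9.48 with DMSO, where the local background was 7.48 reads with POM and 26.2 with DMSO. TIAM1, an activator of the GTPase RAC1, had at its start site 152 reads with POM and 142 with DMSO and a fold enrichment of 31.9 with POM and 15.2 with DMSO. The member inside FAM83B had 352 reads with POM and 137 with DMSO. The others of the 12 lay inside SGCZ and IMMP2L and near MAP10 and BRINP2. Of the 12 strongest, 7 had more reads with POM and 5 more with DMSO, 3 lay at a gene end, and 7 had a peak of the ATRA-labelled or ATRA+POM list within 500 bp.

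Among members with at least 20 reads in both libraries, the 5 with the highest ratio of fold enrichment in POM stood far from peaks of the ATRA-labelled and ATRA+POM lists. They lay inside ELFN2 (214 reads with POM and 40 with DMSO, ratio 8.16), inside SMOC2 (283 with POM and 35 with DMSO, ratio 7.74) and inside GSE1 (79 with POM and 39 with DMSO, ratio 6.21). The other two lay 119 kb from MTCL1 (251 with POM and 39 with DMSO, ratio 5.79) and 129 kb from PELI1, a ubiquitin ligase of Toll-like receptor signalling (440 with POM and 63 with DMSO, ratio 5.75). None of the 5 had a peak of the ATRA-labelled or ATRA+POM list nearer than 59786 bp, and none lay at a gene end.

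The 5 with the lowest ratio had 36 reads with POM and 82 with DMSO near HSD17B3, an enzyme of testosterone synthesis (4.84 times lower in fold enrichment with POM), and 52 with POM and 95 with DMSO near ANKRD13C. INSIG1, which holds the sterol sensor SCAP in the endoplasmic reticulum, had 58 with POM and 176 with DMSO at 14.1 kb, and NEMP2 had 22 with POM and 76 with DMSO in its body. The fifth lay inside RARB, which encodes retinoic acid receptor beta (chr3:24981857-24982083), with 29 reads with POM and 52 with DMSO and a fold enrichment of 2.31 with POM and 10.1 with DMSO. An ATRA+POM peak stood 226 bp from the HSD17B3 region and 345 bp from the RARB region.

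**Figure D3:**
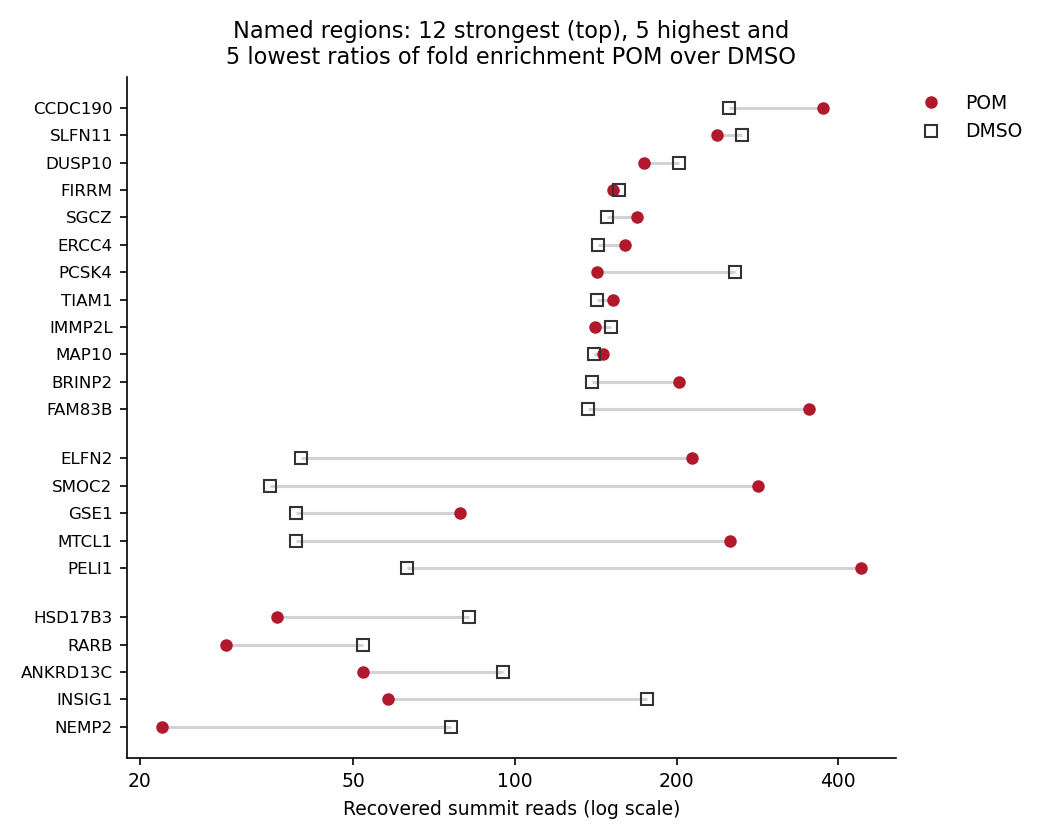
Summit reads (log axis) of the 12 strongest members and of the 5 with the highest and the 5 with the lowest ratio of fold enrichment POM over DMSO, each row a region named by its gene; filled circles are POM and open squares DMSO. The strongest run from 137 to 374 reads, and the widest gaps are at regions such as PELI1, with 440 reads with POM against 63 with DMSO.

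The rule did not use gene positions, but the share of such regions at a gene end moved with peak strength and with merging. Taking 1000 bp on each side of both ends of every protein-coding gene, 1553 members (30.8%, 29.5 to 32.1) had their midpoint in such a window, where 18.8% of all merged regions did. Among all 32828 regions called with POM and DMSO, which include the members, the share was 30.1% (29.6 to 30.6), near that of the members. The share was 33.7% for regions called in all 4 lists, a difference of -2.92 points (95% Newcombe interval -4.35 to -1.48). Those regions were wider, with a median of 1400 bp against 384 bp. The midpoint of a wide region can lie outside a window that the region covers, so this difference depends on width. Regions called with POM, DMSO and ATRA+POM stood at 16.8%, 14.0 points (12.4 to 15.6) under the members. Those called with POM, DMSO and in the ATRA-labelled list stood at 31.7%, a difference of -0.875 points (-3.08 to 1.31) that includes 0. In the stronger 50% of each list, regions of the members' pattern stood at 50.2%, and with peaks up to 500 bp apart merged they stood at 22.9%.

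In 4 other calling patterns, regions lay less often at gene ends. The share at a gene end was 6.59% for regions called with POM only, 14.9% for DMSO only, 2.80% for POM and ATRA+POM only and 5.38% for DMSO and the ATRA-labelled list only. The members exceeded these by 24.2 (22.8 to 25.6), 15.9 (14.5 to 17.3), 28.0 (26.7 to 29.3) and 25.4 (23.9 to 26.9) points. Median summit reads with POM were 39 at the members and 35 at regions called with POM only, and with DMSO 45 at the members and 37 at regions called with DMSO only.

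RefSeq start sites with strand were at hand for 15812 genes. Outside chromosome 8, where none were used, 1427 of 4836 members (29.5%) had a midpoint within 1000 bp of one, where 17.9% of all merged regions did. Among all regions called with POM and DMSO, which include the members, 29.3% did. Counting any base within 1000 bp of a start site, added after the data were seen, gave 30.9% for members. By that count regions called in all 4 lists, which were wider, stood at 40.7%. The midpoint shares were then set side by side at equal strength, with width not made equal. The members' start-site share was 39.4% at up to 20 reads, 34.0% at 21 to 30, 27.6% at 31 to 40, 25.1% at 41 to 60, 23.9% at 61 to 80 and 20.5% at 81 to 120. In regions called in all 4 lists it was 28.1% at 21 to 30 reads, 29.0% at 31 to 40, 34.8% at 41 to 60, 36.3% at 61 to 80, 36.7% at 81 to 120, 35.6% at 121 to 200 and 30.1% above 200. The difference, members minus regions called in all 4 lists, was 5.90 points (-1.17 to 12.2) at 21 to 30 reads, -1.42 (-6.67 to 3.56) at 31 to 40, -9.71 (-13.2 to -6.16) at 41 to 60, -12.4 (-17.1 to -7.15) at 61 to 80 and -16.2 (-21.9 to -9.24) at 81 to 120. From 41 to 120 reads the intervals exclude 0, with the midpoints of members less often at start sites, and from 21 to 40 reads they include 0.

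**Figure D4:**
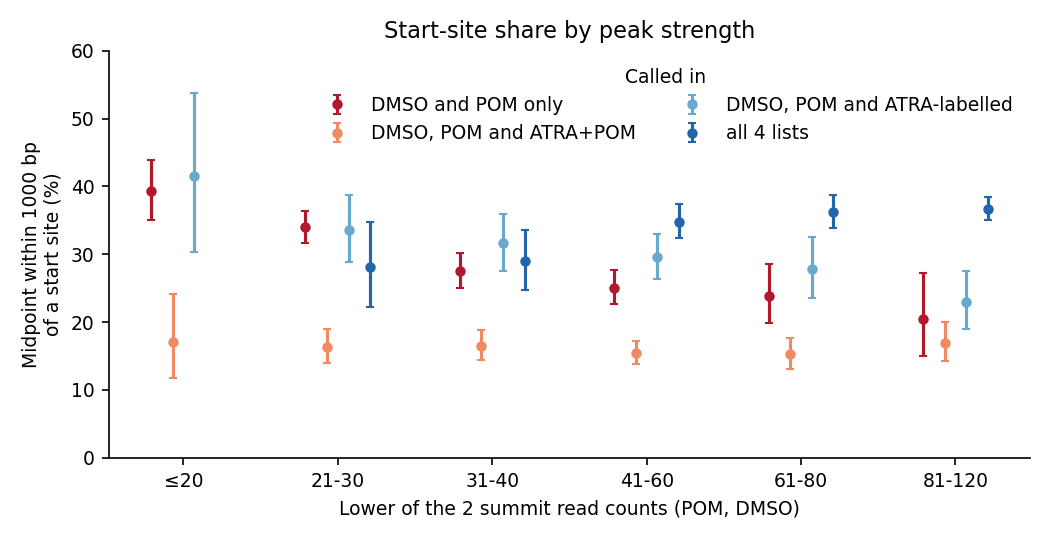
Share (%) of regions with a midpoint within 1000 bp of a start site, by the lower of the POM and DMSO summit reads, for the members and 3 other calling patterns; bars are 95% Wilson intervals and points with under 50 regions are left out. The members stand at 39.4% in the weakest group and 20.5% at 81 to 120 reads, where regions called in all 4 lists stand at 36.7%.

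Around the start site the member summits formed 2 flanks with a gap between. Of 1425 DMSO summits within 1000 bp of a start, 17 (1.19%, 0.746 to 1.90) lay in the 100 bp before it, and of 1413 POM summits 14 (0.991%, 0.591 to 1.66) did. The 250 bp from 500 to 251 bp upstream held 25.3% of the POM and 23.4% of the DMSO summits. From the start to 99 bp downstream there were 9.27% of the POM summits and 11.5% of the DMSO summits, and from 100 to 249 bp downstream 14.0% of the POM summits and 15.9% of the DMSO summits. Regions called in all 4 lists had the same gap, with 1.21% of POM and 1.31% of DMSO summits in the 100 bp before the start. From 500 to 251 bp upstream lay 25.3% (23.1 to 27.6) of POM summits for the members, 25.8% (22.7 to 29.1) for regions also called in the ATRA-labelled list, 21.7% (19.1 to 24.5) for those also called with ATRA+POM and 19.7% (18.7 to 20.7) for regions called in all 4 lists.

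**Figure D5:**
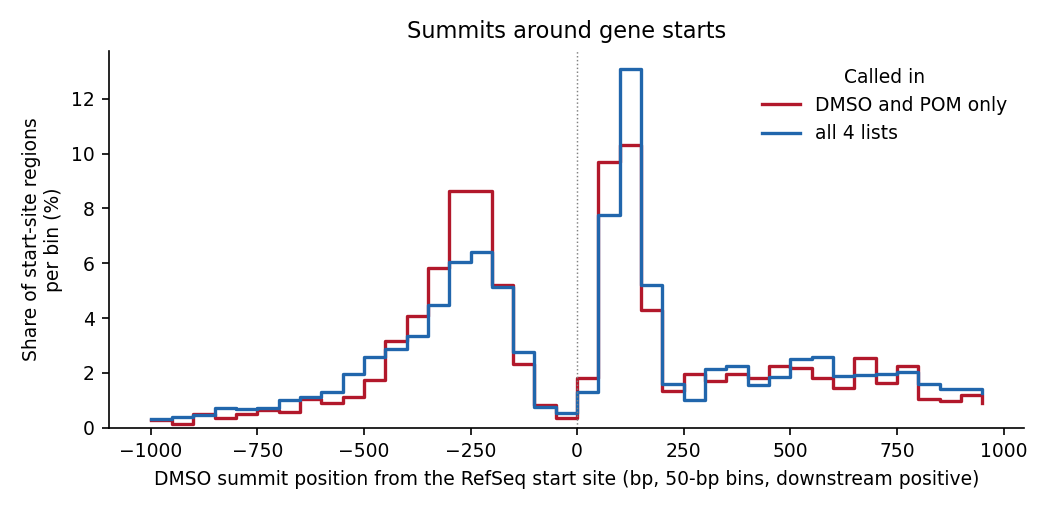
Share (%) of DMSO summits in 50-bp bins of distance from the RefSeq start site, for members and for regions called in all 4 lists that lie within 1000 bp of a start. Both sets have an upstream and a downstream flank, and the members hold 0.351% of their summits in the 50 bp before the start.

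Members at start sites are described next beside the other members. Their median summit reads were 33 with POM and 47 with DMSO, with a median log2 ratio of fold enrichment of -0.09, and the members elsewhere had 41 with POM and 44 with DMSO, with a median of 0.05. Of members with at least a 2-fold higher value in POM 19.1% (15.7 to 23.2) were at a start site, of those within 2 times 30.1% (28.7 to 31.5), and of those at least 2 times lower in POM 37.5% (31.7 to 43.7). These classes were set on values that the rule used, with 1 library per treatment, and no test was made. The same split was not made for other regions, so it is not shown to be particular to the members.

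The promoters were searched for 12 motifs on both strands of the 300 bases from 250 before to 50 after the start. The searched letters were GGGCGG (SP and KLF factors), CCGGAAGT (ETS factors), AAGATGGC (YY1), TGGGAA (core of IKZF binding), GCGCATGC (NRF1), CCAAT (NF-Y), TGACGTCA (CREB), TGACTCA (AP-1), CACGTG (MYC and other E-box factors), TGTGGTT (RUNX), AGGTCA (the site of 1 nuclear receptor subunit), and a pair of AGGTCA sites spaced by 5 bases, the direct repeat that retinoic acid receptors bind. A match is a description of letters and not a binding site. The 539 promoters overlapped by a member and by no other region were set beside the 7175 overlapped by a region called in all 4 lists and by no member, and beside all 22132.

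GGGCGG stood in 77.0% of member promoters, 68.7% of promoters with a region called in all 4 lists and 56.3% of all promoters, and the difference of members from regions called in all 4 lists was 8.28 points (4.40 to 11.8). CCGGAAGT stood in 5.38% of member promoters, 11.1% of those with a region called in all 4 lists and 5.35% of all, a difference of -5.74 points (-7.52 to -3.39). AAGATGGC stood in 3.71% of member promoters, 7.36% of those with a region called in all 4 lists and 3.54% of all, a difference of -3.65 points (-5.09 to -1.61). TGGGAA stood in 17.8% of member promoters, 22.7% of those with a region called in all 4 lists and 22.7% of all, a difference of -4.92 points (-8.08 to -1.34). The intervals of the other 8 motifs include 0.

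Base composition also differed between these sets. The median share of G and C was 67.7% in the member promoters, 64.0% in those with a region called in all 4 lists and 62.3% in all promoters, and its part in the motif shares was not tested. AGGTCA stood in 7.24% of member promoters, 9.53% of promoters with a region called in all 4 lists and 11.9% of all promoters. The difference of members from regions called in all 4 lists was -2.30 points (-4.32 to 0.291), which includes 0. The spaced pair of AGGTCA stood in 0 of the 539 member promoters, which says only that these letters are not in these windows. It stood in 0 of the 7175 promoters with a region called in all 4 lists and in 1 of all 22132. So rare a match cannot tell the sets apart. In the 201 promoters that hold both member summits, which may overlap other regions too, CCGGAAGT stood in 11.4% (7.75 to 16.6), GGGCGG in 73.1% (66.6 to 78.8), TGGGAA in 20.4% (15.4 to 26.5) and AAGATGGC in 5.47% (3.08 to 9.53). Each of these intervals includes the share in promoters with a region called in all 4 lists.

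The members differed in their distance from regions called in all 4 lists. Of the 5044, 1640 (32.5%) lay within 1000 bp of a region called in all 4 lists, 482 (9.56%) at 1000 to 5000 bp and 2922 (57.9%) farther off, at a median gap of 48688 bp. The start-site share was 40.4% (38.0 to 42.8) in the nearest, 15.6% (12.6 to 19.2) in the middle and 25.7% (24.1 to 27.3) in the farthest group. Within 5000 bp of a region called in all 4 lists lay 42.1% of members, 31.2% of regions called with POM, DMSO and ATRA+POM, and 41.3% of those called with POM, DMSO and in the ATRA-labelled list. After merging peaks up to 500 bp apart, the members' share was 17.5%. Members also lay near each other: 758 (15.0%) had another member within 1000 bp, and 3213 (63.7%) had a region of any other calling pattern within that distance.

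Chromosome 19 had the highest share of members among regions called with POM and DMSO, 256 of 1333 (19.2%, 17.2 to 21.4), and chromosome 13 the lowest, 106 of 880 (interval 10.1 to 14.4%). As a description, with no share of other regions on those chromosomes beside it, members at a gene end made up 55.5% on chromosome 19 and 20.0% on chromosome 18.

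A member lay at the locus (the body with 5000 bp on both sides) of 3590 of 19974 protein-coding genes, which is 18.0%, and at a gene end of 1640, which is 8.21%. At 347 genes a member was the only region at either end. The most members at a locus were 7, at DNAJC1, a chaperone cofactor of the endoplasmic reticulum, at KCNQ1, a potassium channel subunit, and at LIG3, a DNA ligase. DNAJC1 has a length of 247 kb and KCNQ1 of 404 kb, but the 7 members at LIG3 lie at a gene of 30.4 kb. GALNTL6, LRRC38, MBP and NEDD4L had 6 each.

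The strongest members at gene ends, apart from DUSP10, PCSK4 and TIAM1, lay at DDX27 and STAU1, which share 1 member (128 reads with POM and 149 with DMSO), and at FBXL13 (124 with POM and 117 with DMSO). ELOF1, an elongation factor of transcription-coupled repair, had 112 with POM and 119 with DMSO. RMI2, a subunit of the BLM helicase complex, had 112 with POM and 125 with DMSO. The member at PCSK4 also counts for its neighbour REEP6.

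Gene lists were then read against the 18.0% and 8.21% of all protein-coding genes. Summit reads named for genes are not set against local background. At some genes fold enrichment ran the other way from reads, and at others the same way, so reads alone do not give the direction between POM and DMSO. In the cereblon ligase list, a member lay at the locus of 6 of 23 genes (26.1%) and at a gene end of 2 (8.70%). CRBN, cereblon itself, had a member at its end (chr3:3178936-3179676) with 21 reads with POM and 46 with DMSO and a fold enrichment of 6.41 with POM and 13.3 with DMSO. No other region was called at either end of CRBN. CUL4A, the scaffold of the same ligase, had 29 reads with POM and 50 with DMSO at its end. Of the zinc finger proteins that cereblon binds in the presence of such drugs or that are related to them, ZBTB16 had a member with 86 reads with POM and 88 with DMSO. IKZF2 had 52 with POM and 39 with DMSO, and IKZF1 had 25 with POM and 105 with DMSO, 28382 bp from its nearer end.

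Of 30 genes of the retinoid pathway, 6 (20.0%) had a member at the locus and 3 (10.0%) at a gene end, shares near those of all genes. NCOA1, a coactivator of nuclear receptors, had 36 reads with POM and 48 with DMSO at its end, with no other region there. RARB held 4 members, the strongest with 36 reads with POM and 60 with DMSO, beside 6 regions called in all 4 lists. RARA held 3, the strongest with 35 with POM and 42 with DMSO. RXRA held 1.

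The higher shares were in the AP-1 and MAF factors, the Wnt and Notch pathways, the unfolded protein response and the BCL2 family. A region of any kind lay at a gene end in 16 of 20 AP-1 and MAF genes. It did so in 20 of 31 Wnt and Notch genes, 19 of 22 unfolded protein response genes and 19 of 25 BCL2 family genes. Over all protein-coding genes the count was 10191 of 19974, so these lists held more regions of any kind as well. Members lay at 9 of 20 AP-1 and MAF loci (45.0%) and at 5 gene ends. FOSB had 58 reads with POM and 105 with DMSO, FOSL2 had 40 with POM and 52 with DMSO, and BACH2, a repressor of plasma cell differentiation, had 71 with POM and 85 with DMSO. In the BCL2 family and death receptors it was 10 of 25 loci and 6 gene ends. The BH3 protein PMAIP1 (NOXA) had 69 with POM and 79 with DMSO at its end, the anti-apoptotic BCL2 had 84 with POM and 69 with DMSO inside the gene, and the death receptor FAS had 71 with POM and 58 with DMSO, inside the gene and 386 bp from an end of the overlapping ACTA2.

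In the unfolded protein response it was 9 of 22 loci (40.9%) and 2 gene ends. CANX, the chaperone calnexin, had 57 with POM and 105 with DMSO at its end, in a region shared with MAML1, and ATF3, a factor of the stress response, had 41 with POM and 89 with DMSO. The stress kinase genes EIF2AK3 (PERK) and ERN1 (IRE1) each held 3 members, with 27 reads with POM and 76 with DMSO at the strongest of EIF2AK3 and with 26 with POM and 25 with DMSO at the strongest of ERN1. Of the Wnt and Notch genes 13 of 31 (41.9%) had a member at the locus and 3 (9.68%) at a gene end. The Notch coactivator MAML2 had 127 with POM and 85 with DMSO, and the Wnt coreceptor LRP6 had 68 with POM and 73 with DMSO. These lists hold few genes, the Wnt and Notch genes have a median length of 40.9 kb against 24.2 kb for all genes, and no test was made. The median was 13.2 kb for the AP-1 and MAF genes, 21.8 kb for the BCL2 family and 24.2 kb for the unfolded protein response.

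Immune lists stood at the other end. Of 36 interferon-stimulated genes 2 (5.56%) had a member at the locus, ISG20 with 40 reads with POM and 59 with DMSO, and IRF1 with 30 with POM and 74 with DMSO at its end. Of 22 antigen presentation genes 1 (4.55%) did, CIITA, the transactivator of MHC class II, with 75 with POM and 90 with DMSO. Of 38 genes of cytokines, chemokines and their receptors 5 (13.2%) did, and at IL10 the member, with 73 with POM and 45 with DMSO, was the only region at either gene end. A region of any kind lay at a gene end in 21 of the interferon-stimulated genes and 7 of the antigen presentation genes, against 10191 of all 19974. In the cytokine list it was 22 of 38. Median gene length was 18.2 kb in the interferon-stimulated list, 6.51 kb in antigen presentation and 12.5 kb in the cytokine list. For all genes it was 24.2 kb, and the part of length in these shares was not tested.

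The other lists lay between. Members were at the loci of 13 of 37 cell cycle genes (35.1%), led by AURKB (65 with POM and 116 with DMSO), E2F3 (60 with POM and 79 with DMSO) and MCM5 (55 with POM and 49 with DMSO). Fold enrichment ran the other way from reads at AURKB (8.35 with POM and 4.62 with DMSO) and E2F3 (5.24 with POM and 4.69 with DMSO). At MCM5 it ran the same way (8.86 with POM and 5.85 with DMSO). They were at 7 of 20 plasma cell transcription factors (35.0%), with MEF2C at 112 with POM and 70 with DMSO, TCF4 at 69 with POM and 117 with DMSO, and MYB at 38 with POM and 61 with DMSO. In the NF-kB list it was 6 of 22 (27.3%), with CYLD at 83 with POM and 48 with DMSO and TRAF3, at whose end no other region was called, at 30 with POM and 59 with DMSO. Chromatin regulators had 10 of 33 (30.3%), with the H3K27 demethylase KDM6B at 80 with POM and 90 with DMSO and HDAC4 at 99 with POM and 58 with DMSO. DNA repair had 7 of 24 (29.2%), the proteasome 7 of 27 (25.9%), the RAS and MAP kinase list 6 of 26 (23.1%), surface antigens 3 of 20 (15.0%) and cytosolic ribosomal proteins 5 of 34 (14.7%).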

How the data were processed

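Grouping of the 8 samples followed the labels (treatment, ChIP or input). Each of the 4 ChIP libraries came with a deposited peak list, and the inputs were used only as they enter those lists. Coordinates are on hg38, per the submitters' processing notes. Aligner, caller and antibody: not given in the sources used here. The authors called peaks per library, with 1 list for each. Each deposited peak has a score (10 times its −log10 p, cut to a whole number), a fold enrichment (the summit over that library's local background, as a ratio) and −log10 p and −log10 q values, all the authors' own.

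The sources state no depth. If the caller used a Poisson model with 1 added to reads and to background, the fold and p of a peak can be solved for its summit reads. Where the solved value was 0.02 or more from a whole number, whole numbers of reads were searched for one that gave the same fold and p. A whole number was found for 100% of peaks in each list. Relative depth was taken as the lowest background seen in 20 or more peaks over the smallest peak width. Both are inferences.

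Peaks on chromosomes 1 to 22 and X sharing at least 1 bp were merged. Gene ends, start sites and promoters came from RefSeq GRCh38.p14, and no genome sequence was used. All 487 symbols of 18 gene lists were found. Named were the 12 strongest members, the 5 highest and 5 lowest ratios, the 5 genes with the most members with ties, the 8 genes with the strongest member at a gene end with ties, and up to 4 genes per list, strongest first. CRBN, IKZF1, EIF2AK3, ERN1 and RXRA fall outside this rule and were chosen after their values were seen. The members, lists and tests were chosen with earlier results of these data known. Shares carry 95% Wilson and differences 95% Newcombe intervals. Merging and read recovery were tested on simulated data. The simulated summits followed the same Poisson model and did not reach down to the lowest reads of the ATRA-labelled list. Alternatives were other peak thresholds, merging distances, overlap rules, windows and scalings. Software was Python 3.11.15 with numpy 2.4.6, scipy 1.17.1 and pandas 2.3.3, and matplotlib 3.10.9 for plots.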

Additional observations from a re-analysis of the deposited data

Results flagged for a closer look

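On sequences outside chromosomes 1 to 22 and X, which the comparisons do not use, 17 of 240 merged regions (7.08%) had peaks with POM and DMSO and none in the ATRA-labelled or ATRA+POM lists. They are named here because they lie in data outside the main measurement.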

How the results depend on the processing

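Each treatment had 1 library, so nothing could be set against a replicate, and a region without a call in a library is not shown to lack binding there: a lost peak and one under the calling limit cannot be told apart. No paired analysis was possible because each treatment has 1 library. Of 49 alternative values, 15 stayed within 1.5 times a count or within the counting interval of a share or median.

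With the stronger 50% of each list there were 2580 such regions, 14.2% of those called with POM and DMSO, with 157 at least 2 times higher and 61 at least 2 times lower with POM, a median log2 ratio of 0.12, 50.2% at a gene end and 25.2% within 5000 bp of a region called in all 4 lists. With an equal number of strongest peaks (36742 a list) these values were 1878, 7.64%, 173, 22, 0.17, 36.4% and 35.6%. With a fold enrichment of at least 5, the share was 12.6%, with 208 higher, 118 lower, 36.5% at a gene end and 36.9% within 5000 bp. With peaks up to 500 bp apart merged there were 2623 regions (10.6%), 249 higher, 137 lower, 22.9% at a gene end and 17.5% within 5000 bp. Without the ATRA-labelled list there were 7656 regions, 23.3% of those called with POM and DMSO. A window of 3000 bp put 39.9% at a gene end. The median log2 ratio was -0.12 from reads over relative depth and -0.05 when centred on regions called in all 4 lists. Of the alternatives chosen after seeing the data, 29.5% lay at a RefSeq start site, 25.6% of those farther than 1000 bp from a region called in all 4 lists lay at a gene end, the median log2 ratio was -0.09 at start sites, and 2744 regions lay farther than 1000 bp from an ATRA-labelled or ATRA+POM peak. The cause of these moves was not tested, beyond the smaller number of peaks that a stricter threshold leaves. For the counts at least 2 times higher or lower, no share over all regions called with POM and DMSO was computed under these settings. Nothing is read from those counts.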

Other observations

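Start sites of long noncoding RNAs and microRNA genes were also set against the members. Of 3409 members at no protein-coding start site, 139 (4.08%, 3.46 to 4.79) lay at the start of a long noncoding RNA, against 525 of 12397 regions called in all 4 lists (4.23%, 3.89 to 4.60). As a description only, with no count for other regions beside it, a member overlapped the hairpin of 6 of 1560 microRNA genes. These were MIR330 (29 summit reads with POM and 58 with DMSO), MIR4276 (35 with POM and 27 with DMSO), MIR4665 (36 with POM and 90 with DMSO), MIR6869 (16 with POM and 18 with DMSO), MIR718 (26 with POM and 47 with DMSO) and MIR7845 (39 with POM and 79 with DMSO).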
